A study of Mus musculus with 6 samples.

Results

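The myosin heavy chain genes were examined in hind leg muscle of control (Con) and exercise (EX) mice. The set held 10 genes given by symbol, and all 10 were found among the 16759 genes of the deposited table. They were Myh4, Myh1, Myh2 and Myh7 of adult fibres, Myh7b, Myh3 and Myh8 of other sarcomeres, and Myh9, Myh10 and Myh11 of nonmuscle and smooth muscle cells. Both groups were male C57BL/6J mice without any engineered allele, 8 weeks old at the start. The 3 EX mice were trained on a treadmill over 6 weeks, with 5 sessions of 60 min in each week and a distance of 22 km, and muscle was taken 24 h after training ended. The 3 Con mice were not trained. A soybean-sized piece of hind leg muscle per mouse went to RNA sequencing, and the labels and methods do not say which muscle of the leg it came from. They also give no batch of extraction or sequencing.

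A myosin heavy chain is the motor of the thick filament: its head binds actin and splits ATP, and its tail packs with others into the filament. The isoform that a fibre makes sets how fast it shortens. In mouse limb muscle Myh4 encodes the IIb chain of the fastest fibres, Myh1 the IIx chain, Myh2 the IIa chain of fast oxidative fibres and Myh7 the type I chain of slow fibres and of the heart ventricle. Myh3 and Myh8 encode the embryonic and perinatal chains, which are also made by regenerating fibres. Myh7b encodes a slow-tonic chain found in muscle spindles and eye muscle. Myh9 and Myh10 encode the nonmuscle chains IIA and IIB, which nearly all other cells use for tension and division, and Myh11 the smooth muscle chain of vessel walls.

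The chains of adult fast fibres resemble each other closely, which bears on how reads can be given to them. A stretch of 60 coding bases is shown because it lies in the longest run that Myh4 and Myh1 share without a difference, which is 161 bases long. It was read from GENCODE M21 transcripts on the GRCm38 assembly, it starts at coding base 3288 of Myh4, and capitals mark bases that differ from Myh4.
Myh4: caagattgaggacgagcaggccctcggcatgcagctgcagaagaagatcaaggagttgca
Myh1: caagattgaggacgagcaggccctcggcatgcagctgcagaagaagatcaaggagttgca
Myh2: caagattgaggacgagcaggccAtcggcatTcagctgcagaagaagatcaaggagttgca
Myh8: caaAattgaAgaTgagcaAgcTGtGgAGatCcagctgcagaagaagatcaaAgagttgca
Myh3: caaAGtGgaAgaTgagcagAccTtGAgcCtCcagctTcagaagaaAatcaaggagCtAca
Myh7: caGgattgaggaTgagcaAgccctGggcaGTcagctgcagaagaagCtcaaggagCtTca
Myh1 had no difference from Myh4 in this stretch and Myh2 had 2, whereas Myh7 had 9, Myh8 had 11 and Myh3 had 15. Over the whole coding sequence Myh1 and Myh2 were 91.0% identical, Myh4 and Myh1 90.1%, and Myh4 and Myh7 77.5%. Myh9 shared 74.5% with Myh11 and 72.5% with Myh10, but no more than 57.6% with any sarcomeric chain. Of all windows of 150 bases, the read length, 2.49% in Myh1, 2.06% in Myh2, 1.60% in Myh8 and 0.511% in Myh4 occurred without a difference in a transcript of another gene. For Myh7 this share was 5.43%, all of it with Myh6, and for Myh7b, Myh9, Myh10 and Myh11 no window was shared. The deposited counts of Myh4, Myh1 and Myh2 were not whole numbers in any of the 6 libraries, and the sources used here do not say how a read that fits several genes was divided.

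**Figure D1:**
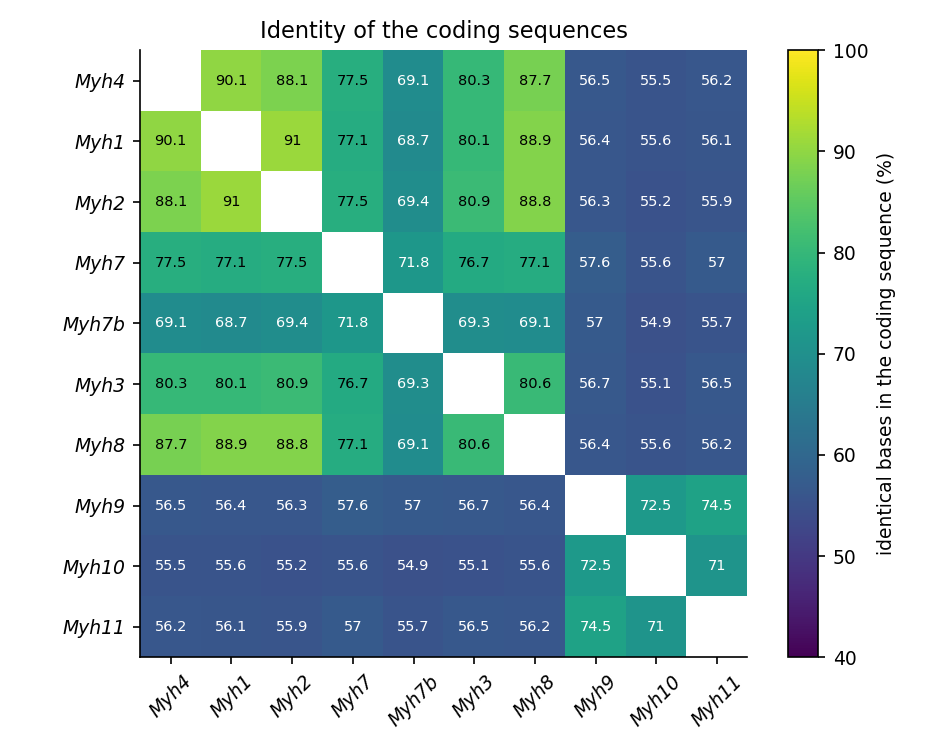
Percent of identical bases between the coding sequences of the 10 genes, 1 GENCODE transcript per gene, on a colour scale from 40 to 100%. The fast chains Myh4, Myh1 and Myh2 and the perinatal chain Myh8 form a block between 87.7% and 91.0%, and Myh9, Myh10 and Myh11 form a separate block between 71.0% and 74.5%.

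Counts on genes ranged from 13845362 to 16240431 per library, and the 10 genes together took 5.76% to 5.87% of them in Con and 5.54% to 5.79% in EX. EX was compared with Con by edgeR's quasi-likelihood test on the counts, and p-values were adjusted over the 12542 genes whose counts averaged 10 or more per library. All 10 genes passed that filter, and each had a mean of at least 10 counts in Con alone. At an adjusted p-value under 0.05, 2054 genes (16.4%) were called, 1046 higher (8.34%) and 1008 lower (8.04%) in EX. The share of higher calls was 50.9%, but 18% with limma on TPM, 29.6% with limma on FPKM and 37.7% when libraries were scaled without the 20 most abundant genes. The skeletal muscle markers Acta1 and Ckm lay at 40832 and 26938 CPM (counts scaled by library size with TMM) in EX. Of the heart markers, Nppa had at most 1 count, Tnni3 at most 5 and Ryr2 at most 6 in any library. Tnnt2, which is also made in embryonic muscle, had 18 to 21 counts in Con and 28 to 50 in EX, and the summed level of these markers was 1.31 to 1.93 CPM in Con and 2.14 to 3.87 in EX. Their part in the results was not tested.

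Of the 10 myosin heavy chain genes, 3 were higher and 4 were lower in EX, against 16.4% of all genes tested that changed in either direction. The slow chain Myh7 rose about 101-fold, the embryonic chain Myh3 7.75-fold and the perinatal chain Myh8 4.28-fold. The IIa chain Myh2 fell by 40.3% and the smooth muscle chain Myh11 fell by 18.5%. Of the nonmuscle chains, Myh10 fell by 18.9% and Myh9 fell by 12.7%. The IIb chain Myh4, the IIx chain Myh1 and the slow-tonic chain Myh7b did not reach the threshold. CPM values of the groups did not overlap for 8 of the 10 genes, against 32.4% of all genes tested. In bulk tissue, fewer or more cells of a type and less or more RNA per cell cannot be told apart.

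The order of the genes by TPM, a level per transcript length, held 4 places at the top in both groups. In Con it ran from Myh4 at 13123 ± 123.1 TPM (SD, n = 3) through Myh1 at 1383 ± 10.0, Myh2 at 193.5 ± 2.74 and Myh9 at 30.9 ± 0.135 to Myh11 at 20.3 ± 1.28 and Myh10 at 3.95 ± 0.236. Below them lay Myh7b at 0.503 ± 0.110, Myh8 at 0.427 ± 0.0404, Myh7 at 0.260 ± 0.0436 and Myh3 at 0.257 ± 0.00577. Myh7b overlapped with Myh8, and Myh7 with Myh3, so these neighbours did not differ beyond their spread. In EX, Myh7 took rank 5 at 24.7 ± 1.43 TPM, overlapping with Myh9 at 25.3 ± 0.673 and above Myh11 at 16.4 ± 0.787. Myh3 at 1.88 ± 0.104 and Myh8 at 1.72 ± 0.170 overlapped with each other and lay above Myh7b, which came last at 0.463 ± 0.0231.

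**Figure D2:**
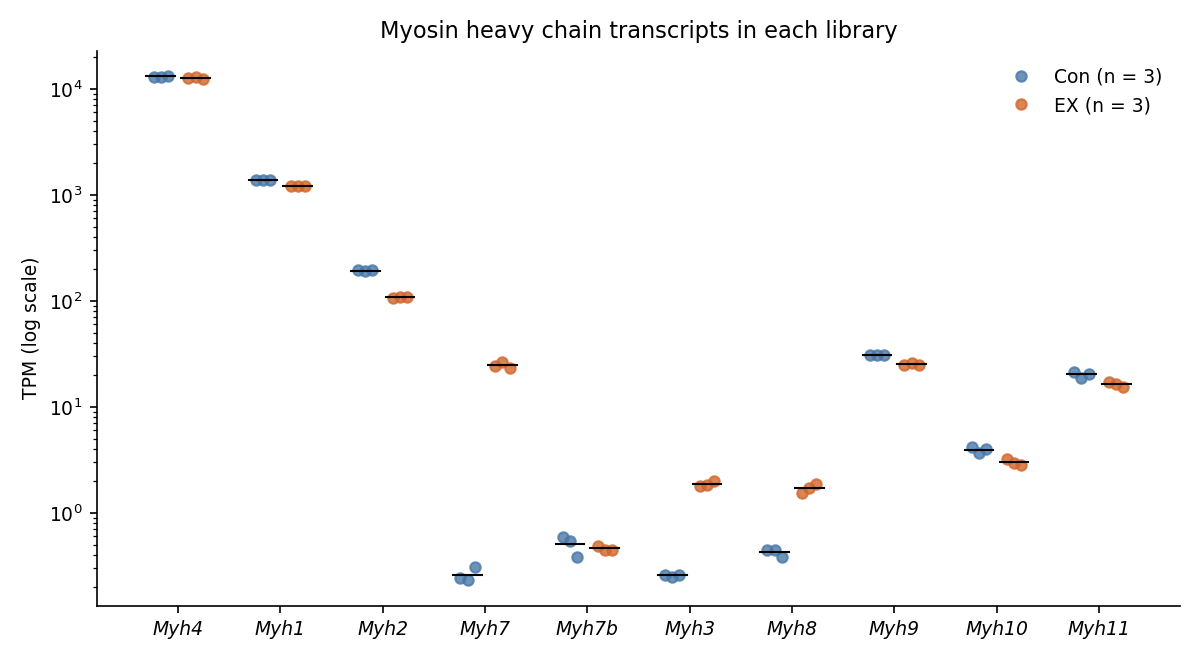
TPM of the 10 genes on a log axis, with 1 point per library (3 Con in blue, 3 EX in orange) and a line at the mean of each group. Myh7 moves from 0.260 to 24.7 TPM and ends level with Myh9, while the points of Myh4 stay near 13123 and 12646 TPM.

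**Figure D3:**
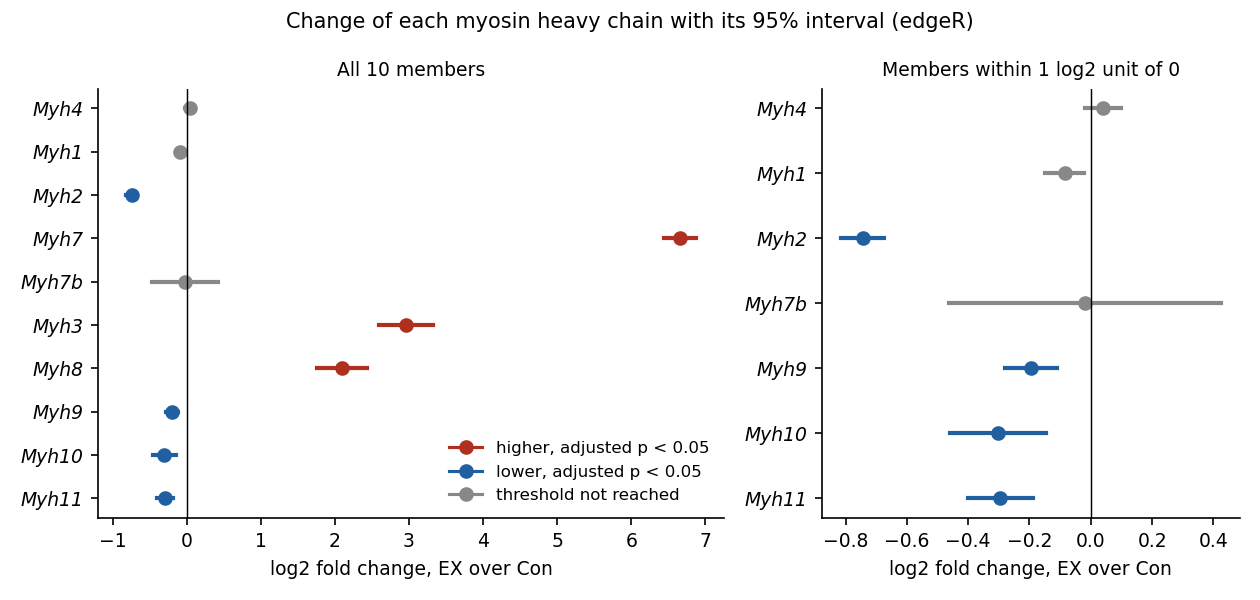
Log2 fold change of EX over Con for each gene with its 95% interval from edgeR, for all 10 genes on the left and for the 7 that lie within 1 log2 unit of 0 on the right. Red and blue mark higher and lower calls at an adjusted p-value under 0.05, and the intervals of the grey genes Myh4 and Myh7b include 0.

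Myh7 had the largest fold change of the genes tested. Con libraries held 13, 14 and 19 counts of it, and EX libraries held 1576.97, 1736.98 and 1521.93, which are not whole numbers. Every EX library was therefore far above every Con library, and the EX libraries lay close together. The muscle or region that each piece came from is not given, and its part in this difference was not tested. In edgeR the log2 fold change was 6.65 (standard error, SE, 0.11, adjusted p = 5.9e-28), which ranked 1 by size among the 12542 genes tested. In FPKM, the level per length and library size, the 3 Con values were 0.16, 0.16 and 0.21 and the EX values 17.1, 18.7 and 16.5. Because of the low Con level, the fold change of limma depended on the pseudocount and was 5.99 with 0.1 and 3.97 with 1 added to FPKM. Myh6, the alpha chain of the heart and the gene that shares windows with Myh7, had between 6.03 and 17 counts in any library. Annotated transcripts run antisense to Myh7, and the strand setting of the library is not given in the sources used here, so reads of both strands cannot be told apart.

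The window around the Myh7 start is shown because this gene moved most. RefSeq on GRCm38.p6 gives 2 starts, and the sequence of the one further downstream, chr14:54994500-54994799 on the minus strand, runs from 250 bases before to 50 bases after it.
Myh7: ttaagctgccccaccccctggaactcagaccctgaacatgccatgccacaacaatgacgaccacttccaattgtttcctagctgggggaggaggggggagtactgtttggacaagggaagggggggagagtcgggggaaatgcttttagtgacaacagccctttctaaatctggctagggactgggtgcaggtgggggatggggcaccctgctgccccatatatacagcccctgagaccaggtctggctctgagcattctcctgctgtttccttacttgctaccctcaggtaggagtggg
It was searched for the MEF2 and CArG motifs and for the MCAT motif, CATTCC, on both strands. The TATA motif was searched as TATAAA on the gene's strand only. None of the 4 matched. The window of the other start holds an MCAT match. Such matches occurred in 1.89% of 27025 promoters of the same length for MEF2, in 1.57% for CArG, in 14.6% for MCAT and in 8.88% for TATA. The E-box (CANNTG) matched at 2 positions of this window, but 72.1% of all promoters hold it.

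Myh2 was the member of the fast group that fell. Con libraries held 10686, 11676 and 12045 counts and EX libraries 6982, 7182 and 7123, so that the highest EX library lay well below the lowest Con library although EX was sequenced more deeply. The log2 fold change was -0.74 (SE 0.03, adjusted p = 3.0e-16). The TPM were 195.4, 190.4 and 194.8 for Con, and 107.4, 108.1 and 109.3 for EX. All 15 alternatives gave a log2 fold change between -0.84 and -0.73 with an adjusted p-value under 0.05. Its start on the plus strand of chromosome 11 (chr11:67170777-67171076, GRCm38.p6) is shown with the match to TATAAA in capitals, which lies 10 bases after the annotated start.
Myh2: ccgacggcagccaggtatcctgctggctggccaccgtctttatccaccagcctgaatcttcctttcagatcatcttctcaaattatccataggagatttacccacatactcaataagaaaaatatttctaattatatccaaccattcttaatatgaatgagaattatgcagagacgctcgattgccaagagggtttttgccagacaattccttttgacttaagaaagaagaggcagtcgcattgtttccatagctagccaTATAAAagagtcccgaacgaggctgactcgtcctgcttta
No other motif of the 4 matched there. The windows of Myh4 and Myh1 each hold MEF2, MCAT and TATA matches, and that of Myh4 a CArG match as well.

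Myh4 made up most of the myosin mRNA. In CPM it lay at 50640, 50253 and 50837 in Con and 51593, 53764 and 50702 in EX, and the groups overlapped. The log2 fold change was 0.04 (95% interval -0.02 to 0.10, adjusted p = 0.382 in edgeR). On the TPM scale the values were 13068, 13038 and 13264 in Con and 12717, 12839 and 12383 in EX, without overlap and in the other direction, and limma on log2(TPM + 0.1) gave -0.05 (adjusted p = 0.389). The direction of Myh4 thus differed between these fits, in which the median of all genes was -0.00222 (edgeR) and -0.0922 (limma on TPM).

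For Myh1 the CPM were 5333, 5296 and 5336 in Con and 4971, 5125 and 4952 in EX. All EX libraries lay below all Con libraries, but the gap was small. The log2 fold change was -0.09 (95% interval -0.15 to -0.02), and the adjusted p-value of 0.054 from edgeR missed the threshold. It was 0.028 without Con replicate 1, 0.241 without EX replicate 3 and 0.0063 with limma on TPM, and 7 of 15 alternatives were past the threshold. An annotated transcript runs antisense to a part of Myh1 and another to a part of Myh2.

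The shares of the adult isoforms were compared within each library, which removes the scaling between libraries. Of the summed TPM of Myh4, Myh1, Myh2 and Myh7, the IIb chain Myh4 held 89.3% in every Con library and 90.3%, 90.4% and 90.2% in EX. The IIx chain Myh1 held 9.41%, 9.42% and 9.39% in Con and 8.72%, 8.63% and 8.82% in EX. The IIa chain Myh2 held 1.335%, 1.304% and 1.311% in Con and 0.763%, 0.761% and 0.796% in EX. The share of each of these chains separated the groups completely, with less spread between mice than between groups. The type I chain Myh7 held 0.00164%, 0.00157% and 0.00209% in Con, against 0.173%, 0.185% and 0.171% for EX. Between group means, Myh4 gained 1.05 percentage points and Myh7 0.174, while Myh1 dropped by 0.683 and Myh2 dropped by 0.543. Each of these differences had an exact permutation p of 0.1 (two-sided, n = 3 per group), the smallest that 3 mice against 3 allow.

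**Figure D4:**
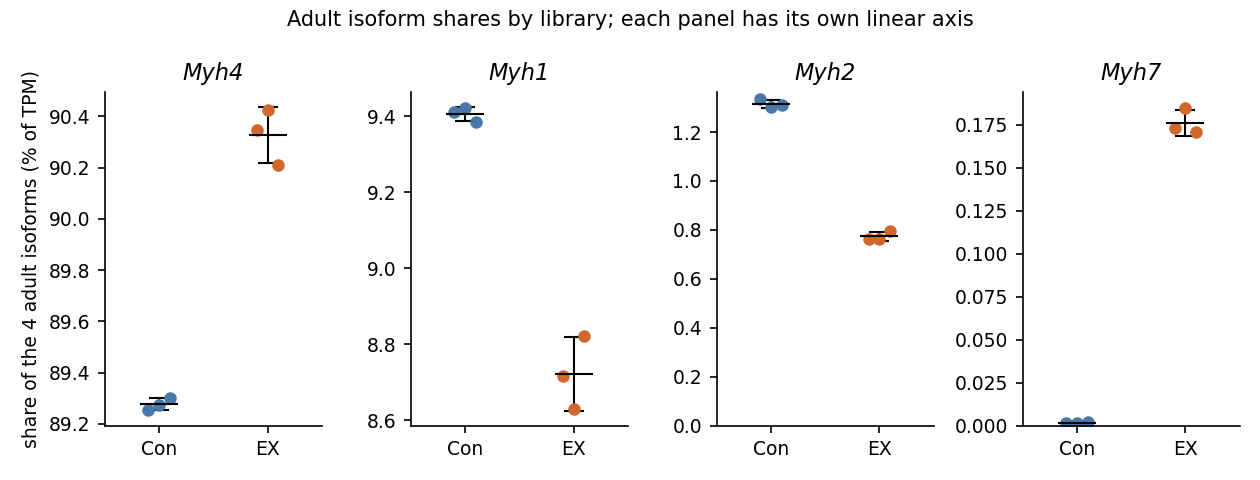
Share of each adult isoform in the summed TPM of Myh4, Myh1, Myh2 and Myh7, with 1 point per library, the mean and the SD (n = 3 per group); each panel has its own axis, and those of Myh4 and Myh1 do not start at 0. The Myh2 share drops from 1.32% to 0.773% and the Myh7 share goes from 0.00177% to 0.176%.

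From Con to EX the mean level of Myh7 changed by 24.4 TPM, that of Myh2 by -85.3, that of Myh1 by -161.5 and that of Myh4 by -477.2. The sizes depended on the scaling: in CPM, which is not per length, Myh1 changed by -305.8 and Myh2 by -303.1, and Myh4 changed by 1443 with overlapping groups. The sum of the 4 adult isoforms was 14700 ± 135 TPM in Con and 14000 ± 244 in EX (exact permutation p = 0.1). In CPM this sum went the other way, from 56651 ± 327 in Con to 57586 ± 1680 in EX, and the groups overlapped (exact permutation p = 0.5). Even after its rise, Myh7 was the rarest of the adult isoforms: 4.39 transcripts of Myh2 were present per transcript of Myh7 in EX, compared with 757 in Con. The ratio of Myh1 to Myh2 went from 7.14 to 11.3, that of Myh4 to Myh2 from 67.8 to 117, and that of Myh4 to Myh1 from 9.49 to 10.4. For all 6 pairs of adult isoforms the log2 ratios of the groups did not overlap, with an exact permutation p of 0.1 and an adjusted p of 0.1 over the pairs.

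Both developmental chains were higher in EX. For the embryonic chain Myh3, Con libraries held 14, 15 and 16 counts and EX libraries 115, 121 and 128. The log2 fold change was 2.95 (SE 0.18, adjusted p = 2.4e-13 in edgeR), the rank 9 by size of all genes tested. The perinatal chain Myh8 reached 25.0, 28.0 and 24.0 counts in Con libraries and 102, 116 and 124.8 in EX libraries. It rose by 2.10 on the log2 scale (SE 0.17, adjusted p = 1.1e-10). Neither gene overlapped between the groups. In 3 of the 6 libraries the count of Myh8 was not whole, and its windows are shared with Myh13, Myh1, Myh4 and Myh2. Both remained minor: in EX, Myh3 made up 0.0135% ± 0.000966 and Myh8 0.0123% ± 0.00138 of the TPM of the 7 sarcomeric genes, compared with 0.00175% and 0.00290% in Con.

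The starts of these 2 genes on the plus strand of chromosome 11 are shown because both rose, Myh3 at chr11:67078050-67078349 and Myh8 at chr11:67276874-67277173 (RefSeq, GRCm38.p6). Capitals mark TATAAA in Myh3, 29 bases before the start, and a MEF2 match on the opposite strand in Myh8, 99 bases before it.
Myh3: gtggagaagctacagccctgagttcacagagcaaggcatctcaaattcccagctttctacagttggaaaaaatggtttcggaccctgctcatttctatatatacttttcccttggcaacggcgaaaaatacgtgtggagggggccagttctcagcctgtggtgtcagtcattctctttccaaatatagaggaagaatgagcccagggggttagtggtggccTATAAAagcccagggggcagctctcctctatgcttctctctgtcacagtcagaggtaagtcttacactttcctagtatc
Myh8: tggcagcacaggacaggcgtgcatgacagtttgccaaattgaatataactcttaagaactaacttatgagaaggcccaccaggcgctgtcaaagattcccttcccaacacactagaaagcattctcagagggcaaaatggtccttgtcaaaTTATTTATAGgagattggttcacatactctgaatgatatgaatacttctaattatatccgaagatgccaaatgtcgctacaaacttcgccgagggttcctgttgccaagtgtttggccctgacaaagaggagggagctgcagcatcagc
Both windows also hold E-box matches, 1 in Myh3 and 2 in Myh8. On this chromosome Myh3, Myh2, Myh1, Myh4, Myh8 and Myh13 follow one another, and 2 of these neighbours rose, Myh2 fell, and Myh1, Myh4 and Myh13 did not reach the threshold.

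Myh7b did not follow Myh7. Con libraries held 32, 33 and 24 counts of it and EX libraries 32, 30 and 29, and the groups overlapped. The log2 fold change was -0.02 with a 95% interval from -0.46 to 0.42 (adjusted p = 0.967 in edgeR). A change of a size within this interval remains possible. Both genes carry a microRNA in an intron, whose sequences are shown as RefSeq gives them on GRCm38.p6, with the seed (bases 2 to 8) in capitals, at chr14:54975710-54975731 on the minus strand for Myh7 and at chr2:155622893-155622913 on the plus strand for Myh7b.
mmu-miR-208b-3p: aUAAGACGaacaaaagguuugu
mmu-miR-499-5p: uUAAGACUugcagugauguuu
The seeds differ in their last base only. A list of 5 noncoding transcripts of heavy chain loci, among them Mir208b and Mir499, was looked for by symbol, and none was in the deposited table. The microRNAs, their precursors and the noncoding transcripts of these loci were therefore not analysed here.

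The 3 genes outside the sarcomere were all lower in EX. Myh9 had 149.4, 147.7 and 148.1 CPM in Con and 126.6, 135.9 and 126.3 in EX. It fell by 0.20 on the log2 scale (SE 0.04, adjusted p = 1.1e-03). For Myh10 the values were 21.1, 18.6 and 19.9 CPM in Con and 16.9, 16.1 and 15.2 in EX, and it fell by 0.30 (SE 0.08, adjusted p = 5.8e-03). Myh11 went from 77.6, 68.2 and 72.8 CPM to 60.1, 61.3 and 56.4, and likewise fell by 0.30 (SE 0.05, adjusted p = 1.1e-04). No EX library reached the lowest Con library in any of these genes. Their sum was 55.2 ± 1.63 TPM in Con and 44.7 ± 1.31 in EX (exact permutation p = 0.1, n = 3 per group), whereas the share of each gene in this sum overlapped between the groups, as with Myh9 at 56.1% ± 1.47 and 56.7% ± 1.21.

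Markers of other cell types are given beside these genes, and their part in the result was not tested. Among all genes tested, 8.34% were higher and 8.04% lower in EX. Of 8 endothelial markers, 5 were lower and 1 was higher in EX, and their summed level was 773 to 793 CPM in Con and 671 to 693 in EX. Flt1 fell by 0.27 and Cdh5 by 0.26, while Cldn5 rose by 0.26 on the log2 scale, a call that neither DESeq2 nor limma made. Of 7 smooth muscle markers tested, Acta2 was higher by 0.15 in edgeR but not called by DESeq2 or limma, and the others did not reach the threshold, with sums of 635 to 664 CPM in Con and 622 to 669 in EX. Tagln, a calponin-related protein of smooth muscle, had a log2 fold change of -0.01 (adjusted p = 0.947). Of 8 macrophage markers 6 were higher, with sums of 40.4 to 44.6 CPM in Con and 74.6 to 81.8 in EX. No listed gene of these 3 cell types was at 0 in all libraries.

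The transcript length that the deposited counts and FPKM imply also differed for Myh11. It was 5340, 5340 and 5257 bases in Con and 4953, 5084 and 5079 in EX, a range of 7.46% of the mean without overlap between the groups. For Myh9 and Myh10 the same quantity varied by 0.224% and 0.210%, and for Myh4, Myh1 and Myh2 by at most 0.232%. It varied by 3.66% for Myh7, 2.42% for Myh7b, 2.07% for Myh8 and 1.54% for Myh3, whose FPKM in Con were low. With limma on log2(FPKM + 0.1), which uses these lengths, the log2 fold change of Myh11 was -0.28 (adjusted p = 0.024).

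Partner genes of the myosin chains were grouped by role. Of 10 partners of slow fibres, 8 were higher and 2 lower, with a median log2 fold change of 0.86 against -0.00222 for all genes tested. The slow troponins Tnni1, Tnnc1 and Tnnt1, which switch the thin filament on, rose by 4.85, 4.84 and 4.26. In Con, Tnni1 held 4 to 8 counts, Tnnc1 6 to 9 and Tnnt1 15 to 30. Tnni1 and Tnnc1 thus passed the count filter only through EX, and both are among the 8 called higher. Myoz2, a Z-disc protein, and Pln, the inhibitor of the calcium pump of slow fibres, fell by 0.81 and 0.68 and were singled out after their values were seen. DESeq2 did not call Pln, and limma called 7 slow partners higher in place of 8, without Casq2, on FPKM and on TPM. Of 12 partners of fast fibres, 11 were higher with a median of 0.20, led by the calcium buffer Pvalb at 0.35, the light chain Mylpf at 0.30 and the calcium store protein Casq1 at 0.29. Tnnt3 had 0.08 (adjusted p = 0.099). The number of fast partners called higher depended on the fit, since limma called 5 on FPKM and 3 on TPM, with medians of 0.13 and 0.10. None of the partners called in edgeR changed sign in those fits.

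Of the genes of embryonic and regenerating fibres, 7 of 9 were tested, and 5 were higher with a median of 0.96. Mymk, which drives the fusion of myoblasts, had at most 1 count in any Con library and 18 to 24 in EX. It is among the 5 and passed the count filter only through EX. When genes had to average 1 FPKM, 6 of the list were tested and 4 were higher. Actc1, the cardiac actin that is also made in embryonic muscle, rose by 1.65 from 509 ± 31.6 to 1599 ± 49.8 CPM, and Myog, a factor of myoblast differentiation, rose by 0.99. Pax7, a marker of satellite cells, had -0.08 (adjusted p = 0.736). Of 10 genes of myosin folding and assembly, 5 were higher and 2 lower, compared with 2 and 2 with limma on TPM. Mybph, a protein bound to the thick filament, rose by 1.25 and the chaperone Hsp90aa1 by 0.45, while Trim63, a ligase that marks myosin for breakdown, fell by 0.30. Of 10 partners of nonmuscle myosin, 2 were higher and 1 lower with a median of 0.01, compared with 1 and 3 with limma on TPM. In edgeR, 16.4% of all genes tested were called in either direction. S100a4, which binds the IIA chain, rose by 0.88, the kinase Mylk fell by 0.24, and Ppp1r12a, a subunit of myosin phosphatase, had -0.13 (adjusted p = 0.075).

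**Figure D5:**
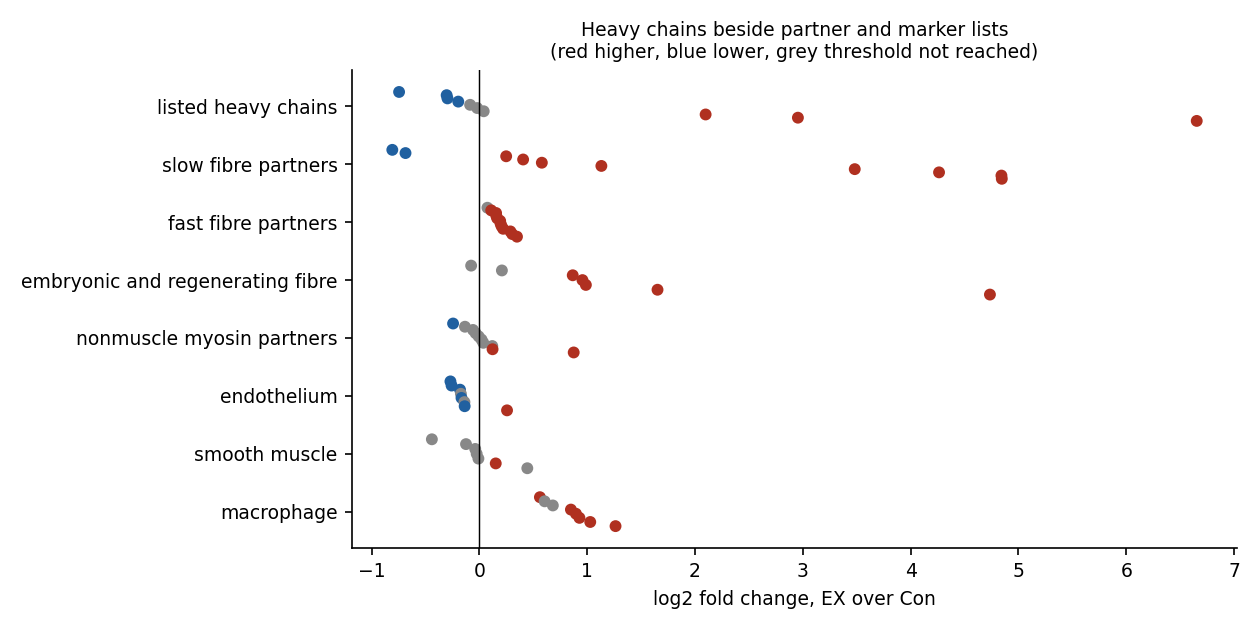
Log2 fold change of EX over Con, 1 point per gene tested, for the 10 heavy chains and for lists of partners and markers; red and blue points passed an adjusted p-value of 0.05 in edgeR and grey points did not. The slow partners and the heavy chains each spread from below 0 to above 4, and all 12 fast partners lie between 0.08 and 0.35.

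The remaining heavy chain genes that were tested did not reach the threshold. Myh13, the chain of eye muscle, lay at 1.26 ± 0.126 CPM in Con and 0.759 ± 0.220 in EX. Its difference was -0.73 on the log2 scale (adjusted p = 0.096 by edgeR). Myh6 had a log2 fold change of -0.46 (adjusted p = 0.444). Myh14, the nonmuscle chain IIC, lay at 43.8 ± 2.36 and 47.0 ± 1.60 CPM, with a log2 fold change of 0.10 (adjusted p = 0.212).

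The genes whose profile over the 6 libraries was most like that of a member were found by the Euclidean distance between centred log2 CPM. For Myh7 these were Tnnc1, Tnni1 and Tnnt1, at distances of 2.42, 2.60 and 3.00. For Myh2 they were Cited2, Slc4a8 and Alb, at 0.107, 0.109 and 0.121, with log2 fold changes of -0.81, -0.73 and -0.75. Myh3 was nearest to Mymk, Snhg11 and Myl2, at 0.672, 1.16 and 1.18. Myh8 was nearest to Ccl21a, Shisal1 and Nr4a3, at 0.352, 0.422 and 0.453. With 2 groups of libraries, such distances mostly reflect the size of the difference between Con and EX.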

How the data were processed

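Hind leg muscle of 3 Con and 3 EX mice was analysed, with 1 library per mouse. Total RNA was extracted with TRIzol and sequenced as 150 bp paired ends on the DNBseq platform. The authors filtered the reads and matched them with HISAT to GRCm39 according to the methods, whereas the submitters' processing notes name GRCm38.p6, cutadapt, featureCounts and MultiQC. The build of the files is therefore uncertain, and sequences and their positions here are on GRCm38.p6 or GENCODE M21. The authors deposited estimated counts, which are not normalized, and FPKM and TPM values, which they normalized by length and library. Between 4.56% and 4.85% of nonzero counts per library were not whole. The 6 columns of group means were not used.

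Counts were rounded, scaled by TMM and tested with edgeR 4.0.16 (glmQLFit, glmQLFTest) in R 4.3.3, with Benjamini-Hochberg adjustment over the 12542 of 16759 genes with a mean of at least 10 counts and a threshold of 0.05. Standard errors were taken from the fold change and the F statistic. The common biological coefficient of variation was 0.0328. Shares and ratios were computed from TPM and compared by exact permutation tests, two-sided, whose smallest p is 0.1. DESeq2 1.42.0 and limma 3.58.1 were alternatives. The fold changes of limma are on the log2(value + pseudocount) scale and are too small for genes with low values. The edgeR, DESeq2 and limma functions were also run on simulated counts, where limma was given CPM. The limma fits on FPKM and TPM were not tested in this way. Coding identity came from global alignment with Biopython 1.88 of the longest open reading frame per gene. Named genes were the 10 members, at most 3 of each list by size of change, and the 3 nearest to each member called with an absolute log2 fold change of at least 0.5. Genes named beyond this rule were singled out with their values in view. The members, lists and tests were chosen with earlier results of these data known. Same-numbered libraries did not deviate together (correlations of -0.0918, -0.0246 and -0.0556), so replicate numbers were not treated as pairs. Intervals cover the spread between these mice only. The result of 1 listed gene is not reported here.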

Additional observations from a re-analysis of the deposited data

How the results depend on the processing

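Without any one library, edgeR called between 1408 (without EX replicate 3) and 1945 genes, and with all libraries DESeq2 called 1249. The 7 members called stayed past the threshold in every alternative in which they were tested. The number higher was 3 except when genes had to average 1 FPKM, where it was 1 (Myh7) because Myh3 and Myh8 were not tested. The number lower was 4, or 5 in the 7 alternatives in which Myh1 passed too. With a replicate block, edgeR called 1911 genes and the same 7 members, and the adjusted p-value of Myh1 was 0.0805. Same-numbered libraries did not correlate, and the sign-flip test of the shares with the block cannot go below p = 0.25. The log2 fold change of Myh4 turned to -0.01817 and -0.01816 with limma on FPKM (pseudocounts 0.1 and 1) and to -0.05356 with limma on TPM. For Myh7b it lay between -0.1871 and 0.0933 when single libraries were left out, with 0.0933, 0.03426 and 0.01019 without Con replicate 1, Con replicate 2 and EX replicate 3. None of these 6 reversals was past the threshold, and their cause was not tested. The shares of the adult and developmental isoforms and the ratios of the adult isoforms kept their direction in FPKM, in counts and without each library. The partner and marker lists were read out under the other fits as an alternative chosen after seeing the data, and no gene called in edgeR changed sign there. Counts of 13 to 33 limit the precision of Myh7b in all libraries and of Myh7, Myh3 and Myh8 in Con.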

Other observations

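Counts for the lists not described above are given beside the 16.4% of all genes tested that were called. Of 13 regulators of fibre type, 2 were higher and 3 lower in EX at an adjusted p-value under 0.05 (edgeR). Among them, Vgll2, a cofactor of TEAD factors, fell by 0.69 and Mafa rose by 0.44 on the log2 scale. Sox6, a repressor of slow fibre genes, had -0.01 (adjusted p = 0.883). Of 6 fibroblast markers 3 were higher, with Col1a1 at 0.86 and Col3a1 at 0.76. Of 5 tendon markers tested 3 were higher, with Tnmd at 0.85, Fmod at 0.79 and Thbs4 at 0.42. Of 6 skeletal muscle markers, Acta1 rose by 0.23 (not called with limma), Mb fell by 0.14 and 4 did not reach the threshold. Among the heart markers only Tnnt2, which is also in the list of embryonic fibres, was tested, and it rose by 0.96.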
